A study of Mus musculus with 24 samples.

Results

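The nuclear-encoded subunits of the respiratory chain and ATP synthase were followed as 83 protein-coding genes of the 54532 genes counted in mouse kidney. A gene was taken when its symbol began with Nduf (assembly factors Ndufaf left out), was Sdha, Sdhb, Sdhc or Sdhd, or began with Uqcr, Cox4, Cox5, Cox6, Cox7, Cox8 or Atp5, and when it had a count of 10 or more in at least 6 of the 24 libraries. Of 99 genes with such a symbol, 86 were annotated as protein coding. The 3 of these that did not reach the count were Cox7b2, Cox8c and a second entry of Atp5o. By symbol, 38 members belonged to complex I, 4 to complex II, 8 to complex III, 16 to complex IV and 17 to complex V. Symbols are an imperfect guide to place: the Ndufa4 product is often assigned to complex IV, Cox7a2l encodes a factor that joins complexes III and IV into supercomplexes, and Atp5s is not a core ATP synthase subunit.

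RNA came from whole kidney of mice lacking LRP2 (megalin, the endocytic receptor of the proximal tubule) in proximal tubule cells and of wild-type littermates. All mice ate a Western diet, for 2 or 12 weeks, and no group on another diet was analysed here. The groups were wild type at 2 weeks, knockout at 2 weeks, wild type at 12 weeks and knockout at 12 weeks, with 6 libraries each. The labels write the mice as LRP2-SM22 +/+ and -/- without explaining the second element. The Cre driver, strain, sex and age were not given in the sources used here. Nor do the labels say that each library is a separate mouse, so p-values measure the spread between these libraries, which may in part be technical.

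Complexes I and II feed electrons from NADH and succinate into coenzyme Q, complex III passes them to cytochrome c, and complex IV hands them to oxygen. Complexes I, III and IV pump protons, and complex V lets them back through its rotor to make ATP. Complex II is encoded wholly in the nucleus, while the other complexes join nuclear subunits to a few made from mitochondrial DNA. The proximal tubule reabsorbs most of the filtered solute, is packed with mitochondria and depends on oxidative phosphorylation. NRF1, the ETS factor GABPA, YY1, CREB and the oestrogen-related receptors (ERR) are known activators of these genes.

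Promoters are shown because the members' RNA moved together in the knockout libraries, as described below. RefSeq promoter windows on GRCm38.p6, from 250 bases before to 50 bases after the start, were matched for 68 of the 83 members. The stretches below are 120 bases upstream of the start, ending at it except for Cox6a1, whose stretch ends 37 bases before it, and are printed 5′ to 3′ on the gene's strand. In complexes I, II and IV each is the member of smallest adjusted p at 12 weeks with the NRF1 letters upstream. In complex III the NRF1 letters stood in 2 windows, but not upstream of the start, so a member with the ETS letters upstream is shown, and Atp5g3 of complex V is shown for its ERR letters. Capitals mark the motif letters on either strand: in Ndufa11 they are 2 overlapping matches, 1 on each strand, and in Atp5g3 they are the ERR letters read on the other strand. Ndufa11 and Sdha encode a membrane-arm subunit of complex I and the flavoprotein of complex II, Uqcr11 a small complex III subunit, Cox6a1 the common form of complex IV subunit 6a, and Atp5g3 the c subunit of the ATP synthase rotor. All 5 fell at 12 weeks.
Ndufa11 (complex I, chr17:56717642-56717761, + strand, NRF1): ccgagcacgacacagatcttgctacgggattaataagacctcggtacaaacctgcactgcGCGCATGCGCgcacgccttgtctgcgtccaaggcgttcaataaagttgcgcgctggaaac
Sdha (complex II, chr13:74350241-74350360, - strand, NRF1): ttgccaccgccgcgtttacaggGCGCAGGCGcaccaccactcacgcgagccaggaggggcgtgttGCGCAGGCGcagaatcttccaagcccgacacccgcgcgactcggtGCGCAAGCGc
Uqcr11 (complex III, chr10:80406822-80406941, - strand, ETS): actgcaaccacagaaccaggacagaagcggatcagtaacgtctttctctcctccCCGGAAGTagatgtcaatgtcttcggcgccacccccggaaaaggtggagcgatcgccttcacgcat
Cox6a1 (complex IV, chr5:115348996-115349115, - strand, NRF1): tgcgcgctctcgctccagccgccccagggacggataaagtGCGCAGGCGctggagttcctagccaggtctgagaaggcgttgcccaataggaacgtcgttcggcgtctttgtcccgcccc
Atp5g3 (complex V, chr2:73911327-73911446, - strand, ERR): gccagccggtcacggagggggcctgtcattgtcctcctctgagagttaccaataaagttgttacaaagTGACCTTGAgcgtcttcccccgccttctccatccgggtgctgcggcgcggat

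Both strands of each window were searched for 5 sets of letters. The NRF1 letters GCGCANGCG were found in 20 of 68 members (29.4%) and in 7.03% of all 27025 genes with a window. The YY1 letters AAGATGGC were found in 14.7% of members and 3.19% of all genes, the CREB letters TGACGTCA in 5.88% and 2.03%, and the ETS letters CCGGAAGT in 7.35% and 4.31%. The ERR letters TCAAGGTCA stood in the windows of Sdhd and Atp5g3, 2.94% of members against 0.466% of all genes. None of these letter sets contains another. The median log2 fold change in knockout at 2 weeks was -0.24 for members with the NRF1 letters and -0.24 for those without. At 12 weeks it was -0.33 with and -0.32 without. A match describes letters in a window and not a bound site.

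Libraries held between 15603580 and 34055860 counts at 2 weeks and between 11327983 and 15236159 at 12 weeks. Levels are given as CPM (counts scaled to a common library size). Lrp2, the deleted gene, averaged 2005 ± 261 CPM (SD, n = 6) in wild-type and 352 ± 142 in knockout libraries at 2 weeks, and 1876 ± 382 and 323 ± 73.1 at 12 weeks. Every knockout library lay below every wild-type library. All 10 listed proximal tubule markers were present, and 7 at 2 weeks and 9 at 12 weeks were lower in knockout, with median log2 fold changes of -0.52 and -0.66. Their summed level ranged from 30474 to 39506 CPM in wild type and from 24899 to 39553 in knockout at 2 weeks, and from 37750 to 44675 and from 20120 to 31722 at 12 weeks. These sums mostly follow the marker Kap. It alone ran from 18405 to 25551 CPM in wild type and from 15895 to 28723 CPM in knockout at 2 weeks. Leukocyte markers were higher for 6 of 7 at each time, with sums of 104 to 142 and 286 to 673 CPM at 2 weeks and of 112 to 276 and 428 to 992 CPM at 12 weeks. Fibroblast and pericyte markers were higher for 5 of 5 at each time, with sums of 93.9 to 135 and 366 to 1003 CPM and of 90.4 to 301 and 421 to 1062 CPM. Some markers of other tubule segments were lower too. For the thick ascending limb 3 of 5 were lower at 2 weeks, and 2 lower and 1 higher at 12 weeks (medians -0.65 and -0.02). For the distal convoluted tubule 3 and 2 of 4 were lower (-0.60 and -0.39), and for intercalated cells 4 and 4 of 5 (-0.45 and -0.53). For principal cells 1 and 2 of 4 were lower (0.01 and -0.50). Of all genes tested, 13.4% were lower and 18.2% higher at 2 weeks, and 17.7% and 20.7% at 12 weeks. Of 4 endothelial markers 1 was lower at each time. Of 4 podocyte markers 1 was lower at 2 weeks and 2 were higher at 12 weeks. The part of these markers in the results on subunits was not tested. In these bulk samples, fewer cells of a type and less RNA per cell cannot be told apart.

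Members of all 5 complexes had less RNA in knockout than in wild-type kidney, at both times. At 2 weeks 38 of 83 members fell and 1, Cox6b2, rose (edgeR quasi-likelihood test, adjusted p under 0.05). Among all 17286 genes tested, 13.4% were lower and 18.2% higher by the same rule. At 12 weeks 65 members fell and 2, Cox6b2 and Cox8b, rose, beside 17.7% lower and 20.7% higher among all genes. The median log2 fold change of members was -0.24 at 2 weeks, where the median of all genes was -0.01. It was -0.33 at 12 weeks, where the median of all genes was 0.00. At 2 weeks, all knockout libraries lay below all wild-type libraries for 27 members, which 6.32% of all genes did. At 12 weeks this held for 26 members, beside 8.3% of all genes. For no member did all knockout libraries lie above all wild-type libraries, whereas 10.3% of all genes did so at 2 weeks and 10.1% at 12 weeks.

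These counts depend on how libraries are scaled. Scaling by trimmed means (TMM) sets the median gene near 0. With total counts alone the median of all genes moved to 0.13 at 2 weeks and 0.23 at 12 weeks. The members' medians were then -0.11 and -0.09, still below the median of all genes. On that scale 12 members were lower and 1 higher at 2 weeks, and 8 lower and 3 higher at 12 weeks. Of all genes, 6.59% were then lower and 26.7% higher at 2 weeks, and 6.18% and 40.1% at 12 weeks. As a share of each library's total, the members made up 2.23% ± 0.0593 (SD, n = 6) in wild type and 2% ± 0.161 in knockout at 2 weeks. At 12 weeks they made up 2.05% ± 0.129 and 1.89% ± 0.146.

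**Figure D1:**
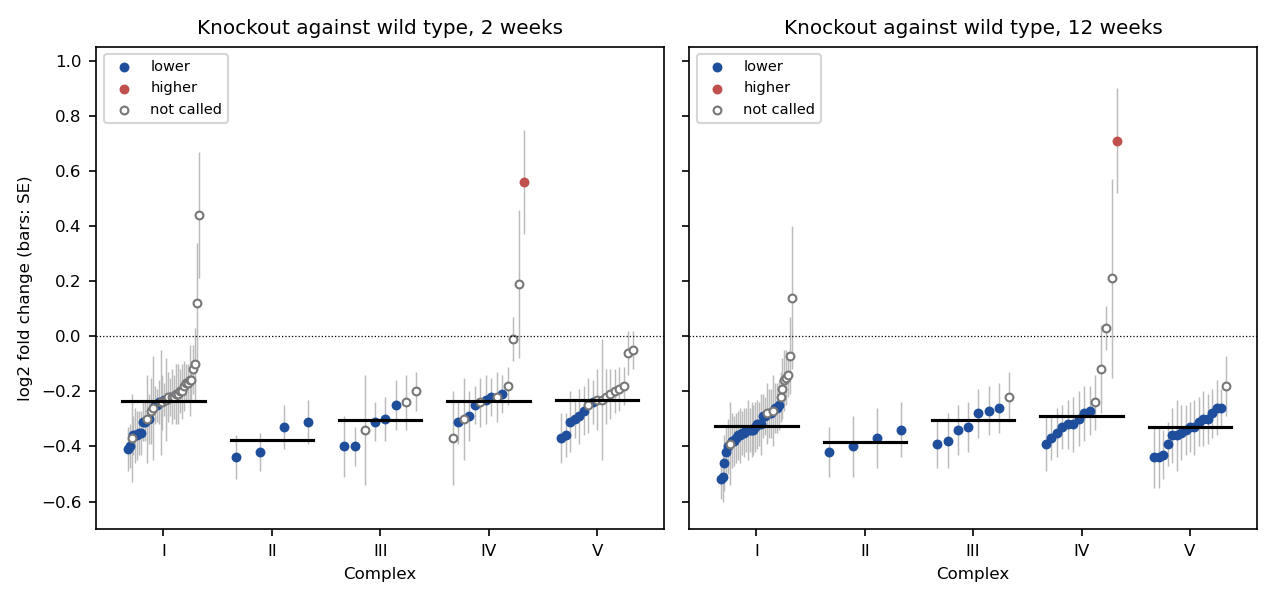
Log2 fold change of each member in knockout against wild type, by complex, at 2 weeks (left) and 12 weeks (right), with standard errors as bars and the complex median, over all its members, as a black line. Cox6a2 and Cox8b, which lie far outside the range, are not drawn. Filled blue points fell, filled red points rose and open points were not called, and the 5 complex medians lie between -0.23 and -0.38.

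The complex medians lay close together. At 2 weeks, 15 of 38 complex I members fell (median log2 fold change -0.24), 4 of 4 in complex II (-0.37), 5 of 8 in complex III (-0.30), 7 of 16 in complex IV (-0.24) and 7 of 17 in complex V (-0.23). At 12 weeks, 28 members fell in complex I (-0.32), 4 in complex II (-0.38), 7 in complex III (-0.30), 10 in complex IV (-0.29) and 16 in complex V (-0.33). No test between complexes was made. In all 36 members fell at both times, and Ndufa4 and Cox6c were the 2 called lower at 2 weeks alone. The 14 members called at neither time were Ndufa2, Ndufa4l2, Ndufa6, Ndufa7, Ndufa12, Ndufb2, Ndufb6, Ndufb8, Ndufs5, Uqcrh, Cox4i2, Cox7a1, Cox7a2l and Atp5e. A missed threshold does not show that these were unchanged. Uqcrh, the hinge subunit of complex III, had log2 fold changes of -0.24 (SE 0.10) and -0.22 (SE 0.09), with edgeR adjusted p = 0.079 and 0.052. Ndufa12, an accessory subunit of complex I, had -0.39 (SE 0.15, edgeR adjusted p = 0.057) at 12 weeks.

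In complex I, Ndufs1 encodes the largest core subunit, which carries iron-sulfur clusters in the NADH-oxidising arm. Its level had a lowest, median and highest value of 294, 341 and 377 CPM in wild type at 2 weeks and 223, 248 and 272 CPM in knockout. At 12 weeks it was 375, 424 and 478 CPM in wild type and 253, 292 and 371 CPM in knockout. The genotypes did not overlap at either time. Ndufs1 was 24.8% lower at 2 weeks (log2 fold change -0.41, SE 0.08, edgeR adjusted p = 4.9e-04) and 27.1% lower at 12 weeks (-0.46, SE 0.10, adjusted p = 0.003).

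Ndufv3, an accessory subunit of the same arm, had the smallest adjusted p among members at 12 weeks. Its wild-type libraries then ranged from 121 to 151 CPM (median 138) and its knockout libraries from 80.7 to 102 CPM (median 95.8). At 2 weeks they ranged from 96 to 116 CPM (median 105) and from 61.2 to 88.9 CPM (median 85.8). No knockout library reached a wild-type one at either time. The difference was 22.2% at 2 weeks (edgeR adjusted p = 0.0045) and 30.3% at 12 weeks (adjusted p = 9.1e-05).

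Ndufa10, an accessory subunit of the membrane arm, was 24.2% lower at 2 weeks, with overlap between the genotypes, and 29.6% lower at 12 weeks with no overlap (edgeR adjusted p = 9.4e-04 and 5.7e-04). Ndufa9, which lies where the arms meet, went from 204 ± 11.7 to 156 ± 7.69 CPM at 2 weeks and from 218 ± 21.9 to 164 ± 21.6 CPM at 12 weeks (SD, n = 6). Its genotypes overlapped at 12 weeks only. Ndufab1, the mitochondrial acyl carrier protein, was 19.3% and 21.1% lower without overlap. Ndufb9 of the distal membrane arm was called at 12 weeks (25.1% lower, edgeR adjusted p = 0.0027) and not at 2 weeks (15.4% lower, adjusted p = 0.067).

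In complex II all 4 members fell at both times. Sdhc, a membrane anchor that helps bind haem, had lowest, median and highest levels of 297, 320 and 342 CPM in wild type and 202, 240 and 253 CPM in knockout at 2 weeks. At 12 weeks these were 327, 368 and 414 CPM and 234, 271 and 326 CPM. At 12 weeks the highest knockout library lay just below the lowest wild-type library. Sdhc was 25% lower at 2 weeks and 25.2% lower at 12 weeks (edgeR adjusted p = 2.5e-04 and 0.0023). Sdha, the flavoprotein that oxidises succinate, was 26.5% lower at 2 weeks (edgeR adjusted p = 4.7e-04) and 24% lower at 12 weeks (adjusted p = 0.0095). Sdhb, the iron-sulfur subunit, was 20.2% and 22.7% lower, and Sdhd, the other anchor, 19.2% and 20.9% lower.

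In complex III, Uqcrfs1 encodes the Rieske iron-sulfur protein that passes electrons toward cytochrome c. Its levels ran from 381 to 438 CPM (median 419) in wild type and from 281 to 330 CPM (median 311) in knockout at 2 weeks. At 12 weeks they ran from 362 to 481 CPM (median 417) and from 266 to 391 CPM (median 317), so that the groups overlapped then. The difference was 24.2% at 2 weeks (edgeR adjusted p = 2.5e-04) and 23% at 12 weeks (adjusted p = 0.01). The core proteins Uqcrc1 and Uqcrc2 were 18.6% and 19.1% lower at 2 weeks and 23.7% and 20.7% lower at 12 weeks. The small subunit Uqcrq was 24.2% and 20.3% lower. All of these passed the edgeR threshold at both times.

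In complex IV, Cox5a, which sits on the matrix face, ran from 156 to 175 CPM (median 165) in wild type and from 116 to 147 CPM (median 130) in knockout at 2 weeks. Its 12-week levels ran from 240 to 317 CPM (median 265) and from 172 to 241 CPM (median 200), so that the highest knockout library just passed the lowest wild-type one. It was 19.5% lower at 2 weeks and 23.5% lower at 12 weeks (edgeR adjusted p = 0.0056 and 0.0059). Cox4i1, the common form of the largest nuclear subunit, was 18.1% and 21.8% lower with no overlap at either time (edgeR adjusted p = 0.017 and 0.0078). Cox5b was called at 12 weeks (22.7% lower, no overlap, edgeR adjusted p = 0.0022). At 2 weeks it was 18.8% lower with adjusted p = 0.16, and its wild-type libraries spread from 172 to 265 CPM. Cox6b1, which lies between the units of the complex IV dimer, was 14.9% and 20.6% lower, and Cox7a2, of subunit 7a, 16% and 19% lower. Cox7b was 13.4% and 17.6% lower. Cox6a1 and Cox8a passed at 12 weeks (20% and 19.8% lower, edgeR adjusted p = 0.0081 and 0.017) and had adjusted p = 0.053 and 0.054 at 2 weeks.

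Atp5b, the catalytic beta subunit of complex V, had the highest level per length of the members in wild type at 2 weeks, 734 ± 56.2 CPM per kilobase of exon at 2 weeks (SD, n = 6). Atp5a1, the alpha subunit, followed at 682 ± 45.2, within the spread of Atp5b. In knockout at 12 weeks Cox8a of complex IV had the highest mean, 549 ± 68.6, with Atp5b at 520 ± 70.4, a difference smaller than either spread. Exon length here joins all annotated exons of a gene, 4237 bases for Atp5b and 619 for Cox8a. These rankings, and the shares of alternative forms given below, depend on that annotation. Atp5b ran from 2713 to 3369 CPM (median 3134) in wild type and from 2171 to 2513 CPM (median 2397) in knockout at 2 weeks. Its 12-week levels ran from 2688 to 3496 CPM (median 3089) and from 1890 to 2583 CPM (median 2144). No knockout library reached the wild-type range. Atp5b was 22.4% lower at 2 weeks (edgeR adjusted p = 0.0027) and 26% lower at 12 weeks (adjusted p = 0.005), and Atp5a1 was 22% and 26.3% lower. Atp5d, the delta subunit of the central stalk, was 18.5% and 23.5% lower without overlap. Atp5f1 of the peripheral stalk was 18.8% and 18.7% lower, and Atp5c1, the gamma subunit of the rotor shaft, 15.3% and 21.8% lower. Of the 3 genes for the c subunit, Atp5g3 was 17% and 21.6% lower and passed at both times (edgeR). Atp5g1 passed at 12 weeks, with 25.6% lower and no overlap (edgeR adjusted p = 0.0014), and had adjusted p = 0.077 at 2 weeks.

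**Figure D2:**
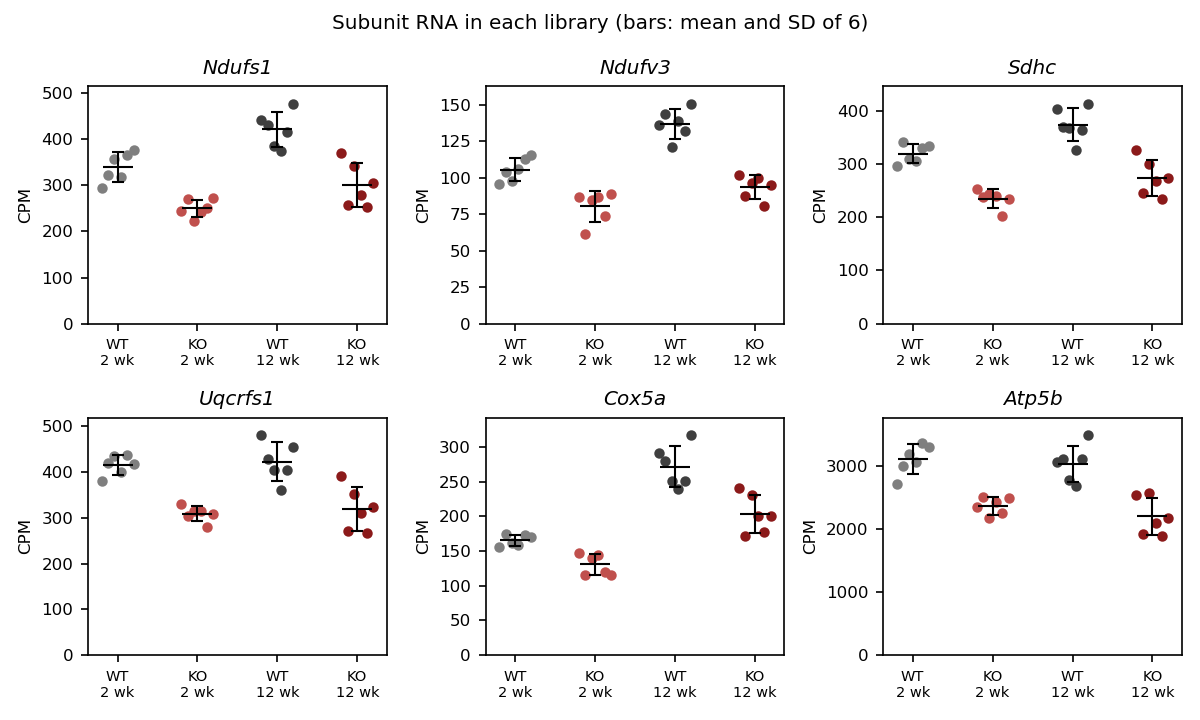
CPM in each library for 1 or 2 members of each complex, with the mean and SD of 6 libraries per group as bars and axes starting at 0. Ndufs1, Ndufv3, Sdhc and Atp5b show no overlap between genotypes at either time, whereas Uqcrfs1 and Cox5a overlap at 12 weeks.

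On the TMM scale the shift ran through whole libraries. For each library the median over members of log2 of its CPM over the wild-type mean was taken. Wild-type libraries lay between -0.06 and 0.06 at 2 weeks and between -0.15 and 0.13 at 12 weeks. Knockout libraries lay between -0.45 and -0.15 at 2 weeks and between -0.57 and -0.16 at 12 weeks. On this scale no knockout library lay within the wild-type range, although at 12 weeks -0.16 and -0.15 are nearly equal. As a share of total counts, the members overlapped between genotypes. The share ran from 2.12% to 2.29% in wild type and from 1.76% to 2.16% in knockout at 2 weeks. At 12 weeks it ran from 1.87% to 2.22% and from 1.73% to 2.08%. In knockout library 5 at 12 weeks the complexes lay between -0.65 (complex II) and -0.55 (complexes III and IV). In knockout library 1 at 2 weeks complex II lay at -0.37 and the others between -0.17 and -0.12. Complex II was the lowest of the complexes in 5 of the 6 knockout libraries at 2 weeks.

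At 12 weeks the knockout libraries with the lowest subunit medians also had the highest Ptprc, the pan-leukocyte CD45 gene. They were libraries 5 (-0.57) and 2 (-0.54), with 93.6 and 179 CPM of Ptprc. Library 6, with 91.7 CPM, had a median of -0.31. Levels of Slc34a1, the phosphate transporter of the proximal tubule, were 2236 and 2218 CPM in libraries 5 and 2, the lowest of the group. At 2 weeks knockout library 5 was lowest (-0.45) and had the highest Ptprc of its group, 68.6 CPM. The rest of that group did not follow Ptprc throughout. Library 6 had the lowest Ptprc, 40 CPM, with a median of -0.32. Libraries 2 and 3 had 54.9 and 54.5 CPM, with medians of -0.37 and -0.17. Slc34a1 did not follow the subunits there: knockout library 3 had the lowest level, 2380 CPM, and a median of -0.17, while library 2 had 3178 CPM and -0.37. Esrra, the gene of ERR alpha, was lowest in knockout libraries 5 and 2 at both times. It stood at 74.6 and 63.1 CPM at 2 weeks and at 89.5 and 83.8 CPM at 12 weeks. Ppargc1a, the gene of PGC-1 alpha, went the other way at 2 weeks. There libraries 5 and 2 had the highest levels of the knockout group, 90.2 and 88.9 CPM. At 12 weeks they had 54.1 and 48.5 CPM of Ppargc1a, and library 4 had 49.2 CPM. None of these relations was tested. 

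**Figure D3:**
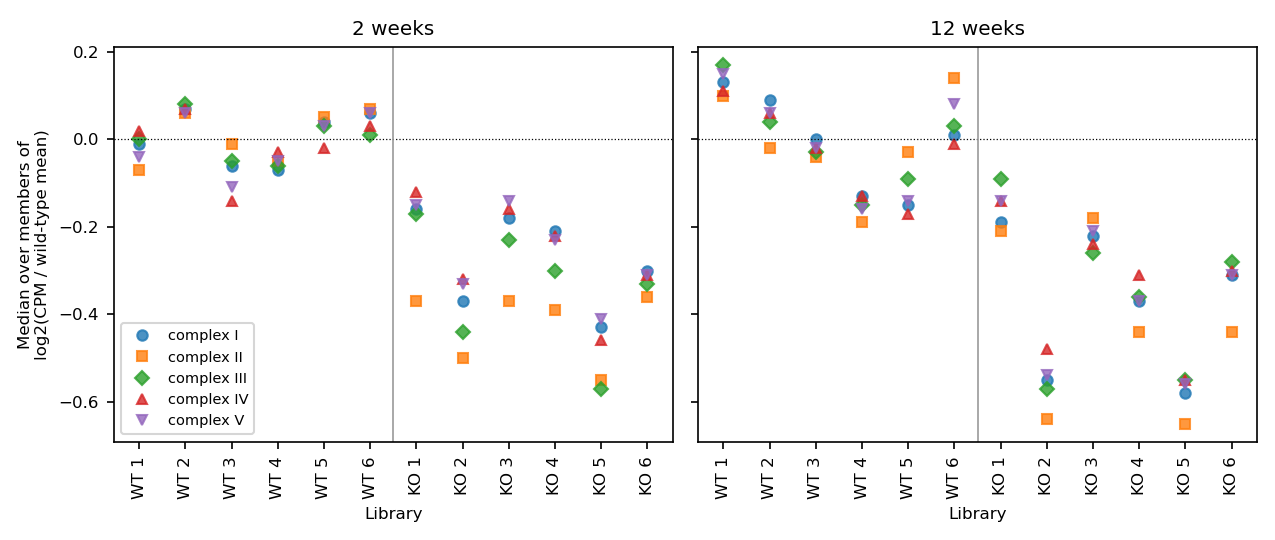
Median over members of each complex of log2 of CPM over the wild-type mean, for every library at 2 weeks (left) and 12 weeks (right), with wild-type (WT) libraries left of the grey line and knockout (KO) libraries right of it. Complex II lies apart below the others in knockout libraries 1 and 3 at 2 weeks, and knockout library 5 is lowest at 2 weeks while libraries 2 and 5 are lowest at 12 weeks.

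Several subunits have a second form made from another gene. Cox6a2, the heart and skeletal muscle form of subunit 6a, had the largest fold of the members that fell, at both times. Its levels ran from 0.944 to 1.74 CPM (median 1.25) in wild type and from 0.0518 to 0.76 CPM (median 0.428) in knockout at 2 weeks, with no overlap. At 12 weeks they ran from 1.34 to 4.11 CPM (median 2.13) and from 0.435 to 1.53 CPM (median 0.772). It was 66.2% lower at 2 weeks (log2 fold change -1.57, SE 0.40, edgeR adjusted p = 0.0053) and 62.2% lower at 12 weeks (-1.40, SE 0.33, adjusted p = 0.0038). These levels rest on 1 to 44 counts a library, and 10.3% of the gene's exon length overlaps Itgad on the opposite strand. Of the skeletal and heart muscle markers 1 of 6, Myh6, was abundant enough to test. It fell with Cox6a2 at 2 weeks, from 1.12 ± 0.443 to 0.458 ± 0.249 CPM (SD, n = 6; edgeR adjusted p = 0.024), and was not called at 12 weeks. Of the markers too low to test, Acta1 and Tnnt3 went the other way at 2 weeks. Acta1 reached 0.104 CPM in wild type and 0.396 CPM in knockout, and Tnnt3 reached 0.195 and 0.453 CPM. The list's summed level was at most 2.24 CPM in any library.

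Cox6b2, known as the testis form of subunit 6b, was the member that rose at both times. It ran from 2.76 to 4.84 CPM (median 4.21) in wild type and from 3.79 to 7.69 CPM (median 6.18) in knockout at 2 weeks. At 12 weeks it ran from 3.77 to 8.67 CPM (median 5.05) and from 7.04 to 11.7 CPM (median 8.76). The groups overlapped at both times. It was 1.48-fold higher at 2 weeks (log2 fold change 0.56, SE 0.19, edgeR adjusted p = 0.031) and 1.63-fold higher at 12 weeks (0.71, SE 0.19, adjusted p = 0.0091). The 2-week call was lost without any 1 of knockout libraries 1, 3, 4 and 5 or wild-type libraries 3 and 5. No testis marker was abundant enough to test, and their summed level was at most 0.161 CPM in any library.

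Cox8b, the muscle and brown fat form of subunit 8, rose at 12 weeks. Its levels in the 6 knockout libraries had a lowest, median and highest value of 0.0725, 1.85 and 10.6 CPM, against 0, 0.1 and 0.39 CPM in wild type (log2 fold change 4.53, SE 1.11, edgeR adjusted p = 0.0071). At 2 weeks it ran from 0 to 5.06 CPM in wild type and from 0.0518 to 0.993 CPM in knockout (edgeR adjusted p = 0.45). Its high libraries were those with fat transcripts: knockout library 4 at 12 weeks had 10.6 CPM of Cox8b, 38.3 CPM of Ucp1, the brown fat uncoupling protein, and 18.5 CPM of the adipocyte gene Adipoq. Brown fat markers were higher for 3 of 3 tested at 12 weeks, with summed levels of 0.0838 to 3.12 CPM in wild type and 0.328 to 65.3 in knockout, and adipocyte markers for 3 of 4, with 0 to 10.2 and 0 to 164 CPM. At 2 weeks the sums reached 39.1 and 37.1 CPM in wild type and 10.1 and 10.6 in knockout. Without the 6 libraries at or above 2 CPM of Adipoq, its log2 fold change at 12 weeks was 0.47 with edgeR adjusted p = 0.82. The knockout libraries so left out, 1, 2, 4 and 5, were also those with the most Cox8b (1.53, 2.17, 10.6 and 5.66 CPM). The loss of the call was thus set by the choice of libraries, and nothing is concluded from it.

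Those 6 libraries were wild-type libraries 1 and 4 at 2 weeks and knockout libraries 1, 2, 4 and 5 at 12 weeks. Without them 37 members were lower and 0 higher at 2 weeks (edgeR), with a median log2 fold change of -0.27. At 12 weeks 5 were lower and 0 higher, with a median of -0.24, but that fit held only 2 knockout libraries. Cox6b2 then had edgeR adjusted p = 0.052 at 2 weeks and 0.12 at 12 weeks. The share of all genes called in these reduced fits was not taken, so the counts of members lack that reference.

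**Figure D4:**
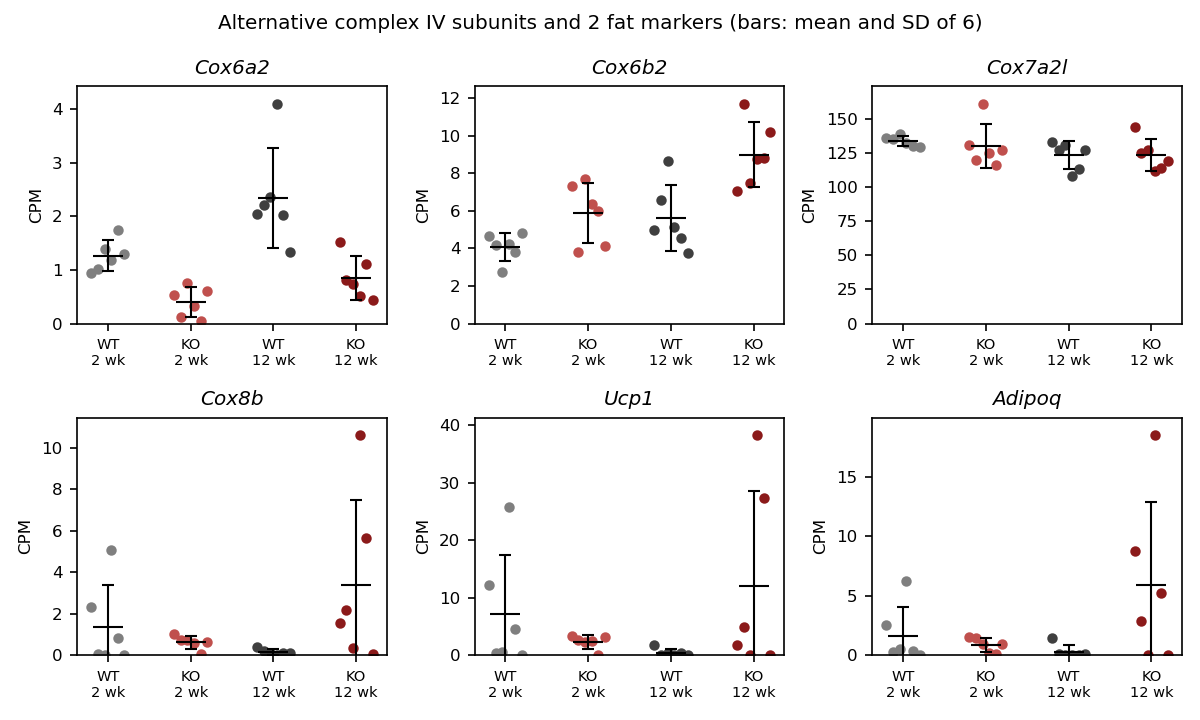
CPM in each library for 4 alternative complex IV genes and for the fat markers Ucp1 and Adipoq, with the mean and SD of 6 libraries as bars and axes starting at 0. Cox6a2 is lower and Cox6b2 higher in knockout, Cox7a2l was not called, and Cox8b is high in the libraries where Ucp1 and Adipoq are high.

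The balance within 9 pairs of alternative and common forms was compared as the alternative's share of the pair's counts per kilobase, in 18 exact two-sided permutation tests, with p adjusted by Benjamini-Hochberg over the 18. With 6 libraries against 6 the smallest possible p is 0.0022. The share of Cox6a2 in subunit 6a fell from 0.296% ± 0.0628 to 0.109% ± 0.0753 (SD, n = 6) at 2 weeks (exact permutation, adjusted p = 0.013). The 12-week share fell from 0.616% ± 0.258 to 0.288% ± 0.137 (exact permutation, adjusted p = 0.033), a call lost without wild-type library 4 or knockout library 2 or 4. The share of Cox6b2 in subunit 6b rose from 0.928% ± 0.156 to 1.59% ± 0.353 (exact permutation, adjusted p = 0.013) and from 1.17% ± 0.412 to 2.39% ± 0.626 (adjusted p = 0.029).

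The share of Cox7a2l, the supercomplex factor, rose against Cox7a2 while its own level was not called. It averaged 134 ± 3.82 and 130 ± 16.1 CPM at 2 weeks and 123 ± 10.3 and 124 ± 11.7 CPM at 12 weeks (SD, n = 6). Its share of the pair rose from 27.8% ± 1.3 to 32.7% ± 1.83 at 12 weeks (exact permutation, adjusted p = 0.013). At 2 weeks the means were 28.3% and 31.7% (exact permutation, adjusted p = 0.051). Total-count scaling put Cox7a2l itself higher at 12 weeks (log2 fold change 0.27, edgeR adjusted p = 0.0063). On that scale 40.1% of all genes were higher, and 0.27 lies near the median of all genes given above.

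Ndufa4l2, a hypoxia-induced relative of Ndufa4, took 0.632% ± 0.251 of its pair in wild type and 1.04% ± 0.211 in knockout at 2 weeks (SD, n = 6; exact permutation, adjusted p = 0.033). At 12 weeks the test was not passed (adjusted p = 0.33, exact permutation). The share of Atp5g2 against Atp5g3 rose from 17% ± 0.954 to 19.3% ± 2.06 at 2 weeks (exact permutation, adjusted p = 0.044), and not at 12 weeks (adjusted p = 0.38, exact permutation). The 2-week calls were lost in 9 of 12 cases (Ndufa4l2) and 10 of 12 cases (Atp5g2) when 1 library was left out. Cox8b took 0.0532% ± 0.0445 of its pair in wild type and 1.73% ± 2.01 in knockout at 12 weeks (exact permutation, adjusted p = 0.033), a call that was lost without any 1 of knockout libraries 1, 2, 4 and 5 or wild-type libraries 4 and 6. The pairs Cox4i2 with Cox4i1, Cox7a1 with Cox7a2 and Atp5g1 with Atp5g3 passed at neither time.

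The genotype difference was compared between the times in 1 model of all 24 libraries. No member passed (edgeR, adjusted p under 0.05), 2 had an unadjusted p under 0.05, and DESeq2 also called 0. Among all genes 0.0579% had a more negative and 0.116% a more positive effect at 12 weeks. The smallest p belonged to Cox8b (log2 difference of effects 5.68, SE 1.65, edgeR adjusted p = 0.17) and Atp5g2 (-0.21, SE 0.10, adjusted p = 0.46). Atp5g2 averaged 85.1 ± 3.17 CPM in wild type and 80.4 ± 8.36 CPM in knockout at 2 weeks. At 12 weeks it averaged 102 ± 7.32 and 83.5 ± 6.94 CPM, with no overlap (SD, n = 6). Next came Ndufa12, Atp5g1, Atp5mpl and Atp5h, with log2 differences of -0.51, -0.22, -0.22 and -0.16 and edgeR adjusted p from 0.52 to 0.64. Without the 6 libraries with Adipoq, which also hold the highest Cox8b levels, the value for Cox8b was -1.21. No member was thus shown to differ in its genotype effect between 2 and 12 weeks. The estimate was more negative at 12 weeks for 64 of 83 members, beside 9056 of all 17286 genes tested. The median log2 difference of effects was -0.07 for members and -0.01 for all genes. This shared direction was not tested.

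Between 2 and 12 weeks members moved both ways. In wild type 6 were lower and 23 higher at 12 weeks (edgeR), beside 14.7% and 15.8% of all genes. In knockout 12 were lower and 21 higher, beside 16.1% and 17.7%. The split turned with scaling: by total counts 30 were lower and 9 higher in wild type, and 26 lower and 12 higher in knockout, with medians of all genes of -0.17 and -0.08. Of all genes, 32.3% were then lower and 8.05% higher in wild type, and 24% and 13.2% in knockout. Among members chosen after their values were seen, Atp5k, a small membrane subunit of ATP synthase, rose from 38.7 ± 7.51 to 129 ± 16.4 CPM in wild type and from 32.4 ± 9.74 to 101 ± 13 CPM in knockout (SD, n = 6). Ndufa3, Cox7c and Cox5a were 1.65-fold, 1.56-fold and 1.64-fold higher in wild type (edgeR adjusted p = 6.1e-07, 4.5e-07 and 3.3e-07). In all genes tested, the difference between the times went with overlap on the opposite strand. Of the 228 genes with over 50% of their exon bases on exons of the opposite strand, 51.32% differed by 2 or more on the log2 scale in wild type, against 3.29% of the 12023 genes with no overlap. Their median log2 differences were 1.42 and 0.00. Between genotypes within a time the medians of the same 228 genes were -0.06 and -0.03. Tagln, which encodes the smooth muscle protein SM22 and has 67.9% of its exon bases on such exons, averaged 0.635 CPM (wild type) and 1.07 CPM (knockout) at 2 weeks, and 36.9 and 85.9 CPM at 12 weeks. No member had over 50% overlap, and 56 had none, with a median of 0.04 in wild type. The 25 members with a near-identical copy, Atp5k and Cox7c among them, had a median of 0.20 in wild type, and the 58 without had 0.06. Time on diet, sequencing depth and any difference in read counting between the times changed together and cannot be told apart.

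Most genes of some related lists fell as well, beside the 13.4% of all genes lower at 2 weeks and 17.7% at 12 weeks. The 13 subunits made from mitochondrial DNA had median log2 fold changes of -0.57 at 2 weeks and -0.60 at 12 weeks, and 9 and 10 of them fell. The complex I core subunit mt-Nd1 went from 9881 to 6855 CPM at 2 weeks and from 18423 to 11767 CPM at 12 weeks (edgeR adjusted p = 0.009 and 6.3e-04). Knockout library 2 at 2 weeks stood apart, with 10520 CPM of mt-Nd1 against 5592 to 6530 in the other knockout libraries and 8252 to 11117 in wild type. Its nuclear subunit median was -0.37. Without it, an alternative added after seeing the data, all 13 of these genes were lower at 2 weeks, with a median of -0.86 (edgeR). That library was left out because it stood high for these genes, so a lower median was set by the choice. The share of all genes called in that fit was not taken, so this count lacks a reference. All 13 citrate cycle enzymes fell at 12 weeks and 11 at 2 weeks (medians -0.40 and -0.32). Of 13 coenzyme Q genes 7 and 10 fell, including Coq9 (edgeR adjusted p = 1.2e-04 and 0.0012). Cyc1, the cytochrome c1 subunit of complex III that the symbol rule misses, was among 3 and 4 of 7 further subunits and carriers that fell.

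Assembly factors help build the complexes and are not part of them. Of 15 for complex I, 7 fell at 2 weeks and 10 at 12 weeks, including Acad9, Ecsit and at 12 weeks Ndufaf4. For complex II 0 of 4 passed at either time (edgeR), and 0 and 2 had an unadjusted p under 0.05. For complex III 1 and 2 of 6 fell, for complex IV 3 and 9 of 19, and for complex V 1 and 1 of 3. The 2-week shares for complexes III and IV are near the share of all genes. Of the 7 cristae and supercomplex genes 4 and 5 fell, among them Immt and Opa1. Of 10 genes for mitochondrial DNA upkeep and transcription 3 and 4 fell, including Tfam. No difference between lists was tested.

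Among regulators of these genes, more fell than rose. Of 12, 5 fell and 1 rose at 2 weeks, and 8 fell and 1 rose at 12 weeks (edgeR). Their median log2 fold changes were -0.32 and -0.36. Of all genes, 13.4% fell and 18.2% rose at 2 weeks, and 17.7% and 20.7% at 12 weeks. Perm1, a muscle-enriched partner of the ERR and PGC-1 pathway, went from 11.7 to 3.84 CPM at 2 weeks (log2 fold change -1.59, SE 0.14, edgeR adjusted p = 1.8e-07) and from 4.46 to 1.57 CPM at 12 weeks (-1.48, SE 0.23, adjusted p = 1.8e-04). Esrra, encoding ERR alpha, went from 141 to 103 CPM at 12 weeks (edgeR adjusted p = 0.0027). Pprc1, a relative of PGC-1 alpha, was the 1 that rose, from 17.2 to 23.2 CPM at 2 weeks and from 16.6 to 27.3 CPM at 12 weeks (edgeR adjusted p = 8.2e-04 and 7.6e-04). For Nrf1, Yy1 and Gabpa, factors whose letters were searched above, the genotypes overlapped at both times. At 12 weeks Nrf1 ran from 17.1 to 22.1 CPM in wild type and from 18.3 to 23.6 CPM in knockout. Yy1 then ran from 88.8 to 110 and from 95.6 to 101 CPM, and Gabpa from 58.7 to 73.9 and from 53.1 to 64.1 CPM.

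**Figure D5:**
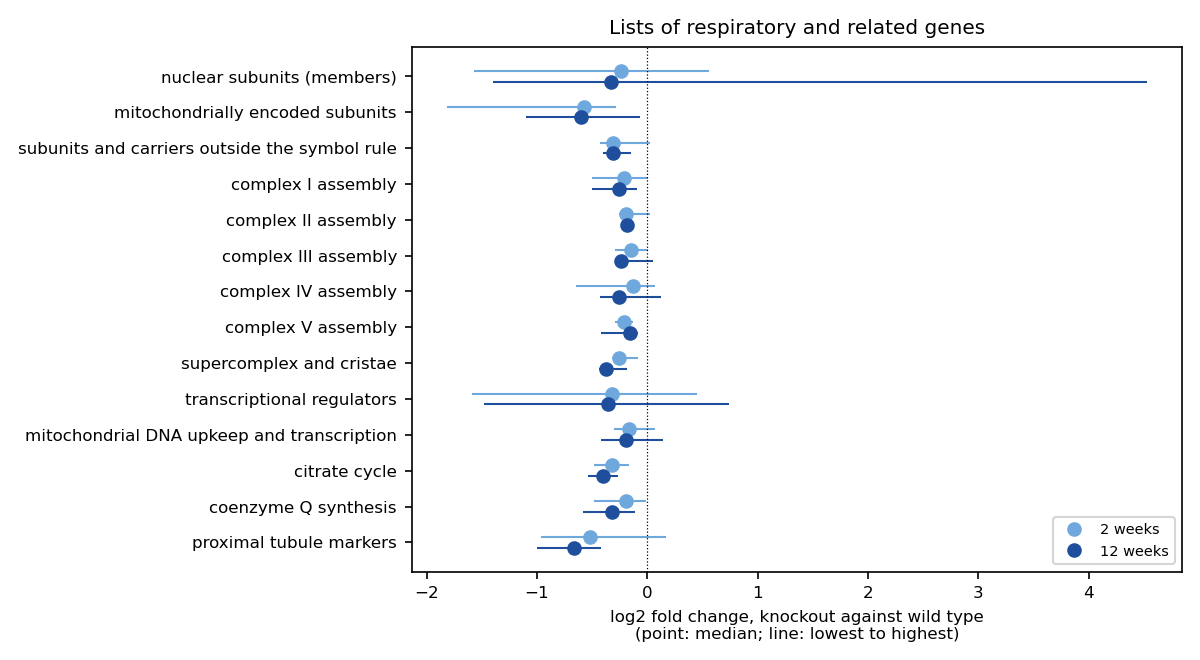
Median (point) and lowest to highest (line) log2 fold change in knockout against wild type for the members and related gene lists at 2 weeks (light) and 12 weeks (dark). Every median lies below 0, from -0.13 for complex IV assembly at 2 weeks to -0.66 for proximal tubule markers at 12 weeks, and the member line extends to Cox8b at 4.53.

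Some members can share reads with other genes. Of the 83, an opposite-strand gene overlapped 30, and 25 have a near-identical copy elsewhere, at 95% identity or more over at least 100 bases of transcript. The counting mode and strand setting were not given in the sources used here. Values of Ndufa12, Ndufab1, Ndufs5, Cox5b, Cox6c, Cox7a2l, Cox7b, Cox7c, Uqcr11, Atp5k, Atp5c1, Atp5f1, Atp5g1, Atp5g2 and Atp5h (copies) are uncertain to that extent. So are those of Ndufs1, Ndufa2, Ndufa3, Ndufa9, Ndufa11, Ndufa4l2, Ndufb2, Ndufb6, Sdha, Uqcrc2, Uqcrh, Cox4i1, Cox5a, Cox6a2, Atp5a1 and Atp5d (opposite strand). Without the 30 overlapping members 22 of 53 were lower at 2 weeks and 41 at 12 weeks. Without the 25 with copies 29 of 58 and 44 were lower (edgeR).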

How the data were processed

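Gene counts of 24 kidney RNA libraries, 6 per group, were used as the authors deposited them. Per the submitters' processing notes, fastp, STAR 2.5 and HTSeq 0.6.1 were used with mm10. Their options, the strand setting and the handling of reads that map to several places were not given in the sources used here. Identifiers were matched to GENCODE M21 (54495 of 54532; the unmatched held at most 0.00528% of a library's counts), which gave symbols, biotypes and exon lengths. Genes passing filterByExpr (minimum count 10, total 15) numbered 17286, and all 83 members passed. edgeR 4.0.16 in R 4.3.3 was run with TMM scaling and robust quasi-likelihood fits, with Benjamini-Hochberg adjustment over all genes tested. Genotype was tested within each time, and the interaction and times over 4 groups. Levels are CPM on TMM-scaled library sizes. DESeq2 1.42.0, other scalings and filters, a replicate block and left-out libraries were alternatives. The scripts were tested on simulated counts. Of 100 changes of 0.3 on the log2 scale, 5 were found at each time and 3 in the interaction. Of 100 changes of 1, 69 were found at 2 weeks, 73 at 12 weeks and 65 in the interaction. The simulated counts held far fewer changed genes than the data, so these rates need not hold there. Named members were those of smallest adjusted p per complex (up to 4), those called higher, the 6 of smallest p in the interaction and the alternative forms. Of a related list, up to 3 called genes of smallest adjusted p per genotype comparison were named, and a few others for comparison. Members and lists were chosen with earlier results of these data known. Libraries of a group differed by more than counting noise, so none was taken as a repeat deposit.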

Additional observations from a re-analysis of the deposited data

Results flagged for a closer look

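For each named member in each group of 6 libraries, 164 sets in all, the highest and lowest library were compared with the rest. In 9 a library stood apart by more than Dixon's 95% critical value for 6 (0.625), and chance alone gives about 1 in 20. At 2 weeks, knockout library 2 had 542 CPM of Atp5c1 where the next was 448, and knockout library 3 had 161 CPM of Cox7a2l where the next was 131. Knockout library 5 stood low for Sdhc (202 CPM, next 235) and Uqcrc1 (332 CPM, next 402). Wild-type library 3 at 2 weeks stood low for Cox5b (172 CPM, next 239) and Atp5h (241 CPM, next 272), and wild-type library 2 stood high for Cox4i2 (0.877 CPM, next 0.671). At 12 weeks, wild-type library 6 stood high for Cox5b (275 CPM, next 253) and wild-type library 4 for Cox6a2 (4.11 CPM, next 2.36).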

How the results depend on the processing

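No genotype difference of a named member or share that passed its test changed sign among the alternatives. With total counts only, 12 members were lower at 2 weeks (median -0.11) and 8 at 12 weeks (median -0.09), 30 lower and 9 higher with time in wild type, and 26 and 12 in knockout. DESeq2 called 55 and 70 members lower at 2 and 12 weeks, RLE scaling 47 and 67, upper-quartile scaling 34 and 60, and 1 fit of all libraries 55 and 66. Without a low-count filter 13 members were higher with time in knockout. Replicate numbers do not pair the libraries (correlations of same-numbered libraries -0.1 to 0.17). A replicate block gave 34 members lower and 0 higher at 2 weeks and 68 lower at 12 weeks. The share of all genes called was taken only for the main fit and total-count scaling. Counts from the other fits lack that reference. Without the 6 libraries with Adipoq (chosen after seeing the data), the counts were 37 lower and 0 higher at 2 weeks, 5 and 0 at 12 weeks, 14 higher with time in wild type, and 0 lower and 13 higher in knockout. Without members on an opposite strand, 22 and 41 were lower by genotype, 3 lower and 13 higher with time in wild type, and 11 higher in knockout. Without members with a copy, 13 were higher with time in wild type and 13 in knockout. Leaving out 1 library at a time gave 29 to 46 lower and 0 to 1 higher at 2 weeks, 50 to 69 lower at 12 weeks, and 13 to 22 higher with time in knockout (13 without knockout library 1 at 12 weeks). The differences in share, in percentage points, ranged at 2 weeks from 0.356 to 0.496 for Ndufa4l2, 0.06 to 0.0937 for Cox4i2, 2.35 to 4.05 for Cox7a2l and 1.49 to 2.7 for Atp5g2, and at 12 weeks from -0.385 to -0.232 for Cox6a2 and 1.02 to 2.02 for Cox8b. Ndufa4l2 lost its call in 9 of 12 cases (not without wild-type library 3 or knockout library 2 or 6) and Atp5g2 in 10 (not without wild-type library 3 or knockout library 5). Cox6a2 lost it without wild-type library 4 or knockout library 2 or 4, and Cox8b in 6 cases (wild-type libraries 4 and 6, knockout libraries 1, 2, 4 and 5). Cox4i2 gained a call without knockout library 1, and Cox7a2l without wild-type library 3 or knockout library 2. Fewer libraries also raise the smallest possible p. Members under 1 CPM are limited by depth.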
